A study of Mus musculus with 12 samples.

Results

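The genotype by region interaction asks whether the difference between the caudal and the rostral piece of the postnatal forebrain is the same in mice that lack the epidermal growth factor receptor gene Egfr as in controls. For each gene, the caudal minus rostral difference in log2 CPM (counts scaled to library size) was taken within each animal, and the differences of 3 conditional knockout (cKO) animals were set against those of 3 controls. All 12 libraries of the series entered this comparison. A positive interaction means that the caudal minus rostral difference was higher in cKO than in control animals, and a negative one that it was lower.

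Messenger RNA was sequenced from whole cortex with hippocampal formation, freed of the ventral forebrain and cut into a rostral and a caudal piece, at postnatal day 5. The cKO animals (T3, T6 and T80) carried Nestin-EgfrF/F, a floxed Egfr on both alleles with a Nestin-driven recombinase, which is active in neural progenitors and therefore reaches neurons and macroglia but not microglia. The controls (T4, T8 and T70) are given as EgfrF/+ in one label and as WT in another. Whether they carry the recombinase is not said, so the loss of Egfr and the presence of the recombinase cannot be told apart. Each group, cKO caudal, cKO rostral, control caudal and control rostral, held 3 libraries, with the caudal and rostral library of a T number taken to come from the same animal.

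In the developing cortex, gradients of transcription factors such as Sp8 (rostral) and Nr2f1 (caudal) set up areas along the rostrocaudal axis, and the caudal piece also holds most of the hippocampal formation and the neighbouring choroid plexus. Egfr is a receptor tyrosine kinase of progenitors and young glia, and the ventricular and subventricular zones around birth use it while they make astrocytes and oligodendrocytes. A difference between pieces in bulk tissue can come from cell types, areas or the place of the cut, and fewer cells of a type cannot be told apart from less RNA per cell.

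The libraries held 43810241 to 87170063 counts. The cortical projection neuron marker Tbr1 was present in every library, at 110 to 283 CPM. Animals T3 and T6 stood apart. In the library labelled cKO rostral T6, mitochondrially encoded genes took 8.18% of counts, against 1.85% to 3.98% in the other libraries, and the median gene lay 0.40 log2 units from the mean of the rest of its group, against 0.14 to 0.25 in the other cKO libraries and 0.09 to 0.14 in control libraries. In T3, the choroid plexus transcript Ttr, for transthyretin, was at 211 CPM in the caudal and 360 CPM in the rostral library, whereas it was at 506 and 138 CPM in the caudal libraries and 0.0822 and 0.399 CPM in the rostral libraries of T6 and T80. In controls Ttr was at 163, 1.64 and 195 CPM in the caudal libraries and 0.202, 0.336 and 0.0481 CPM in the rostral libraries of T4, T8 and T70. The T3 pair therefore goes against its region labels for this transcript, as it does for the meningeal and choroid plexus lists. Cortical and hippocampal genes went both ways in T3. Sp8, a gene of rostral cortex, was higher in the T3 library labelled rostral, as in each control. Nr2f1 and Neurod1 were higher in that labelled caudal, again as in each control. Wfs1 (-0.75 log2 CPM caudal minus rostral in T3) and Syt6 (0.31) had the sign opposite to that in each control. An exchange of the T3 labels or another place of the cut was not tested. The labels were kept, and they set the sign of every T3 difference. Counts of calls and medians of the lists are therefore also given without T3 and without T6.

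No gene passed the test of the interaction. Of 21599 genes tested, 0 had an adjusted p under 0.05 (0% of genes; edgeR quasi-likelihood F test with the animal as a block and Benjamini-Hochberg adjustment, lowest adjusted p = 1). At an unadjusted p under 0.05 there were 943 genes, 4.37% of those tested, with 376 above 0 (1.74%) and 567 below 0 (2.63%). The 3 cKO animals did not overlap the 3 controls for 2156 genes (9.98%), with cKO above in 984 (4.56%) and below in 1172 (5.43%). DESeq2 called 16 genes (0.0741% of the 21599), 2 above and 14 below 0. It gave no adjusted p for 5444 of the genes, which could not be called. A limma fit to the within-animal differences called 0, and voom weighted by library quality called 536 (2.48%). The median interaction over all genes was -0.02 on the log2 scale. Of the estimates 46.3% were above and 53.7% below 0, against which the counts of list members above and below 0 are to be read. Counts of list members at an unadjusted p under 0.05 are likewise to be read against 4.37%, with 1.74% above and 2.63% below 0. Within one genotype, edgeR called 0 genes between caudal and rostral in cKO (1214 at an unadjusted p under 0.05, 5.62%) and 0 in control (2420, 11.2%).

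The cKO animals did not resemble each other in their region differences. The median size of the caudal minus rostral difference was 0.18, 0.36 and 0.14 log2 CPM in T3, T6 and T80, against 0.15, 0.18 and 0.19 in T4, T8 and T70. T6 had the highest value of all animals, and T80 the lowest. The mean was 0.228 ± 0.119 log2 CPM in cKO and 0.172 ± 0.0217 in control animals (SD, n = 3 each), a difference smaller than the spread in cKO (two-sided exact permutation p = 0.8, where 0.1 is the smallest this design allows). Without T6 the sign of this difference was turned, to -0.01.

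Across genes, the caudal minus rostral profiles of control animals were alike, with Pearson r of 0.57 for T4 and T8, 0.50 for T4 and T70 and 0.54 for T8 and T70. Among cKO animals r was -0.42 for T3 and T6, 0.13 for T3 and T80 and 0.12 for T6 and T80. Against the mean profile of the controls r was -0.22, 0.56 and 0.16 for T3, T6 and T80, while each control had 0.58 to 0.64 against the mean of the other controls. Thus T6 shared the direction of the control profile with a larger size, T3 ran against it, and T80 showed little of it. These coefficients are over genes, which are not independent replicates, and describe these libraries only.

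**Figure D1:**
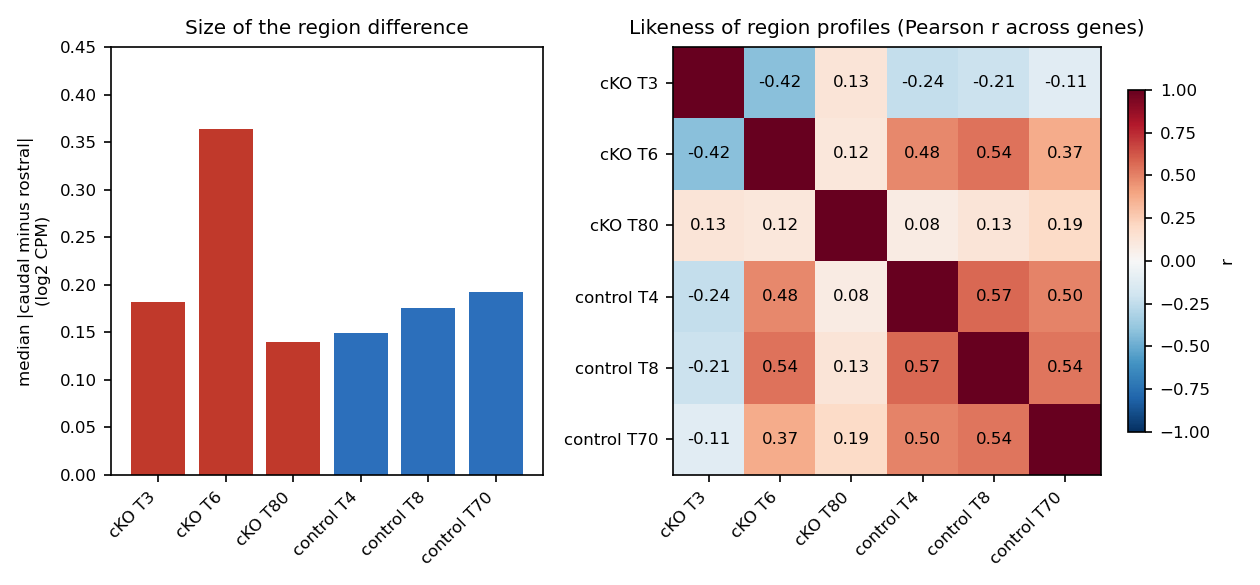
Left, the median size of the caudal minus rostral difference (log2 CPM) over 21599 genes in each animal, cKO in red and control in blue. Right, Pearson r across genes between the difference profiles of each pair of animals. T6 stands highest at 0.36, and the control pairs share an r of 0.50 to 0.57 while T3 and T6 have -0.42.

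Egfr itself (chromosome 11, 16702203 to 16868158, GRCm39) showed the genotype in every library. It was at 5.81, 14.6 and 9.49 CPM in the caudal libraries and 10.3, 6.37 and 12.6 CPM in the rostral libraries of cKO T3, T6 and T80, against 45.4, 39.1 and 40.2 CPM in the caudal and 41.8, 39.7 and 48.9 CPM in the rostral libraries of control T4, T8 and T70. All cKO values lay below all control values. The region difference of what remained was not of one sign, at -0.82, 1.19 and -0.41 log2 CPM in T3, T6 and T80, against 0.12, -0.02 and -0.28 in the controls. The interaction was 0.05 (SE 0.50), with an edgeR adjusted p of 1.

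The gene with the smallest p was Sst, the neuropeptide somatostatin of a large class of cortical interneurons (chromosome 16, 23708323 to 23709708). It was at 50.7, 83.1 and 45.9 CPM in caudal and 50.0, 107 and 48.5 CPM in rostral libraries of cKO T3, T6 and T80, against 73.0, 54.6 and 54.1 CPM in caudal and 45.6, 33.3 and 33.3 CPM in rostral libraries of control T4, T8 and T70. Every control animal had more Sst in its caudal piece, by 0.68 to 0.71 log2 CPM, and the cKO animals were between -0.36 and 0.02. All 3 cKO rostral libraries lay above all 3 control rostral libraries, while the caudal libraries overlapped. The interaction was -0.84 (SE 0.12, unadjusted p = 0.000145), and it did not pass (edgeR adjusted p = 1).

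The interneuron list as a whole had the tightest values among animals. Its mean caudal minus rostral difference over 16 members was -0.03, -0.02 and 0.04 log2 CPM in T3, T6 and T80, against 0.28 in each of T4, T8 and T70. The animals of the genotypes did not overlap for this list, which held for 2 of the 29 lists and for 9.98% of all genes. Neither T3 nor T6 stood apart in the interneuron list. Of the members, 13 of 16 had an interaction below 0 with a median of -0.31. At an unadjusted p under 0.05, 5 were below 0, against 2.63% of all genes. The median was -0.28 without T3 and -0.32 without T6. In edgeR with all animals no member had an adjusted p under 0.05, whereas DESeq2 called Sst (DESeq2 adjusted p = 0.00277). Erbb4, a neuregulin receptor of the Egfr family found in interneurons, was at -0.40 (SE 0.13), Lhx6, a transcription factor of interneurons from the medial ganglionic eminence, at -0.33 (SE 0.11), and the secreted ligand Nxph1 at -0.32 (SE 0.11). Lhx6 was at 38.0, 44.9 and 39.0 CPM in caudal and 37.1, 53.3 and 40.9 CPM in rostral cKO libraries, against 43.0, 40.6 and 41.6 CPM in caudal and 35.4, 35.7 and 35.3 CPM in rostral control libraries. Only the rostral values of the genotypes were apart, with cKO above.

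**Figure D2:**
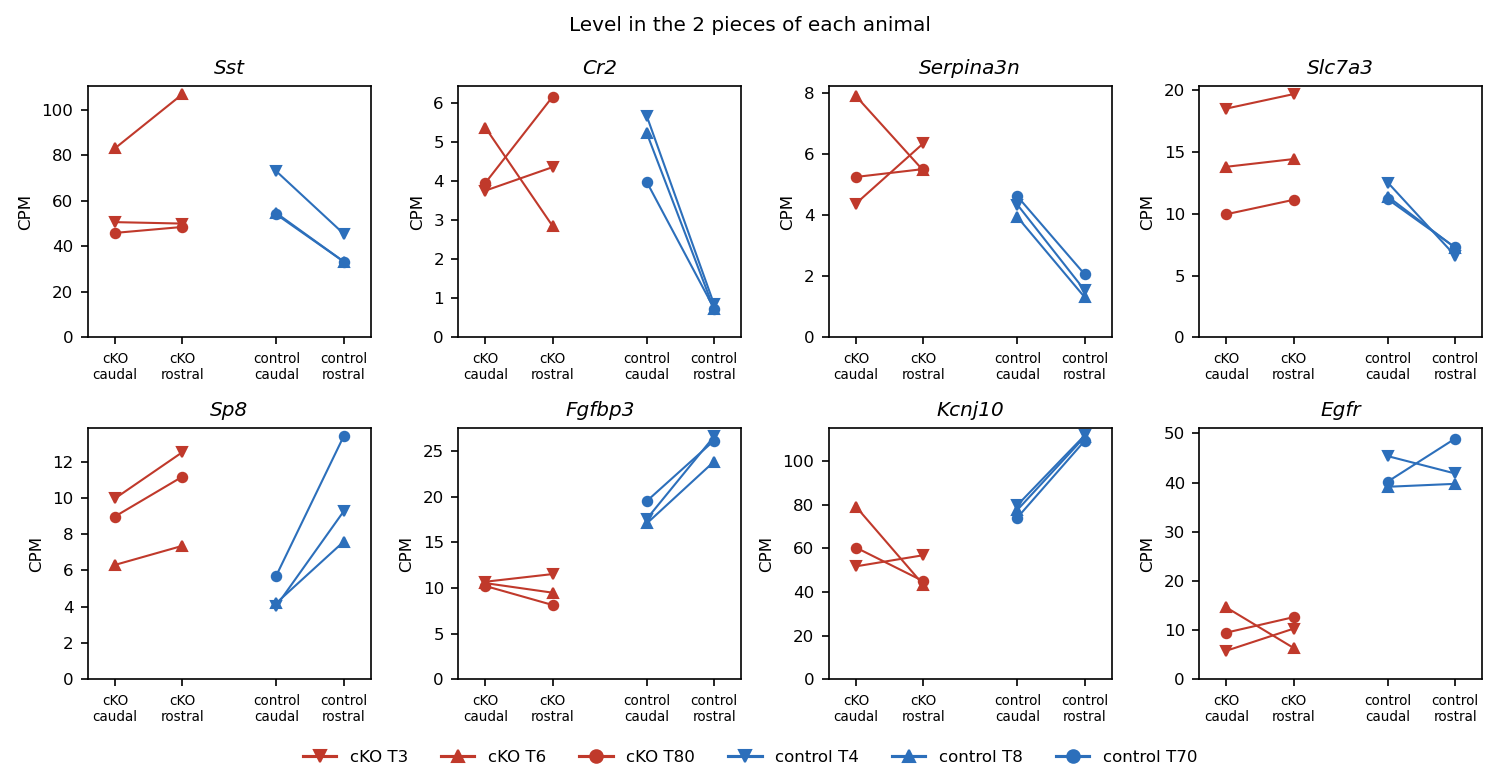
CPM of 8 genes in the caudal and rostral piece of each animal, with a line joining the pieces of one animal, cKO in red and control in blue. Sst, Cr2, Serpina3n and Slc7a3 slope down from caudal to rostral in each control and not in each cKO animal, and Egfr is at 14.6 CPM or less in every cKO library.

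Other genes with an interaction below 0 behaved like Sst in their control animals. Cr2, complement receptor 2, was at 3.76, 5.37 and 3.96 CPM in caudal and 4.36, 2.85 and 6.17 CPM in rostral libraries of cKO T3, T6 and T80, against 5.66, 5.23 and 3.98 CPM in caudal and 0.845, 0.719 and 0.737 CPM in rostral libraries of control T4, T8 and T70. Thus the low rostral level was seen in each control and in no cKO animal. The interaction of Cr2 was -2.66 (SE 0.41), the farthest from 0 among the 24 genes chosen by smallest p. Slc7a3, a transporter of cationic amino acids, had caudal minus rostral differences of -0.09, -0.06 and -0.16 in cKO against 0.92, 0.65 and 0.61 in control animals (interaction -0.83, SE 0.14). S100a11, a calcium-binding protein, had -0.55, -0.82 and -0.54 against 0.20, 0.30 and 0.23 (-0.88, SE 0.14), so that in cKO the rostral piece held more. None of these passed (edgeR adjusted p = 1).

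The remaining named genes below 0 were Smtnl2, a smoothelin-like protein (interaction -0.89), Glra3, a glycine receptor subunit (-0.83), Kirrel3, an adhesion molecule of synapses (-0.66), Slc24a4, a sodium, potassium and calcium exchanger (-1.78), Unc5d, a netrin receptor family member of upper-layer neurons (-0.54), Rgs3, a regulator of G protein signalling (-0.62), Ndrg1 (-0.51), and Serpina3n, a protease inhibitor that marks reactive astrocytes (-1.43). In all 12 the 3 controls had a caudal minus rostral difference above 0, between 0.20 and 2.79, and the cKO animals ranged from -0.82 to 0.90. In 11 of the 12 the region estimate was smaller in size in cKO than in control. The mean cKO rostral level of all 12 was nearer to the control caudal than to the control rostral level on the log2 scale. The genes were taken for the smallest p and for animals that do not overlap, which in part fixes such counts.

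Above 0, the leading genes were those with more RNA in the rostral piece of controls. Emid1, an EMI domain protein, was at 15.8, 13.9 and 17.8 CPM in caudal and 14.5, 13.5 and 16.6 CPM in rostral libraries of cKO T3, T6 and T80, against 17.5, 19.0 and 19.4 CPM in caudal and 30.0, 28.7 and 25.5 CPM in rostral libraries of control T4, T8 and T70. The control rostral libraries stood above all others, and the interaction was 0.68 (SE 0.13, edgeR adjusted p = 1). Fgfbp3, a secreted protein that binds fibroblast growth factors, was at 10.7, 10.5 and 10.2 CPM in caudal and 11.5, 9.48 and 8.13 CPM in rostral cKO libraries, against 17.6, 17.1 and 19.5 CPM in caudal and 26.6, 23.8 and 26.1 CPM in rostral control libraries. It was lower in cKO in both pieces without overlap, and its interaction was 0.62 (SE 0.15, edgeR adjusted p = 1).

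Others above 0 were Klhl25, a substrate adaptor of an E3 ubiquitin ligase (0.48), Tpbg, the trophoblast glycoprotein (0.73), the orphan receptor Gpr153 (0.55), Strip2 (1.61), Bhlhe40, a basic helix-loop-helix repressor (0.61), Htr2a, a serotonin receptor of cortical neurons (0.71), Rrm2, a ribonucleotide reductase subunit of dividing cells (0.44), Ephb1, an ephrin receptor (0.51), and Echdc1, a metabolic enzyme (0.45). With Emid1, Sp8 and Fgfbp3 they make 12, and all 3 controls were below 0 in 11 of them. The exception was Strip2, at -0.89, 0.04 and -1.51 in T4, T8 and T70 against 0.90, 0.82 and 0.69 in T3, T6 and T80. In 11 of the 12 the region estimate was again smaller in size in cKO. The mean cKO rostral level was nearer to the control caudal level in 10 of the 12, Sp8 and Bhlhe40 being the exceptions. The choice by smallest p and by animals that do not overlap in part fixes these counts too. Their share over all genes tested was not counted, so they describe the chosen genes only.

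**Figure D3:**
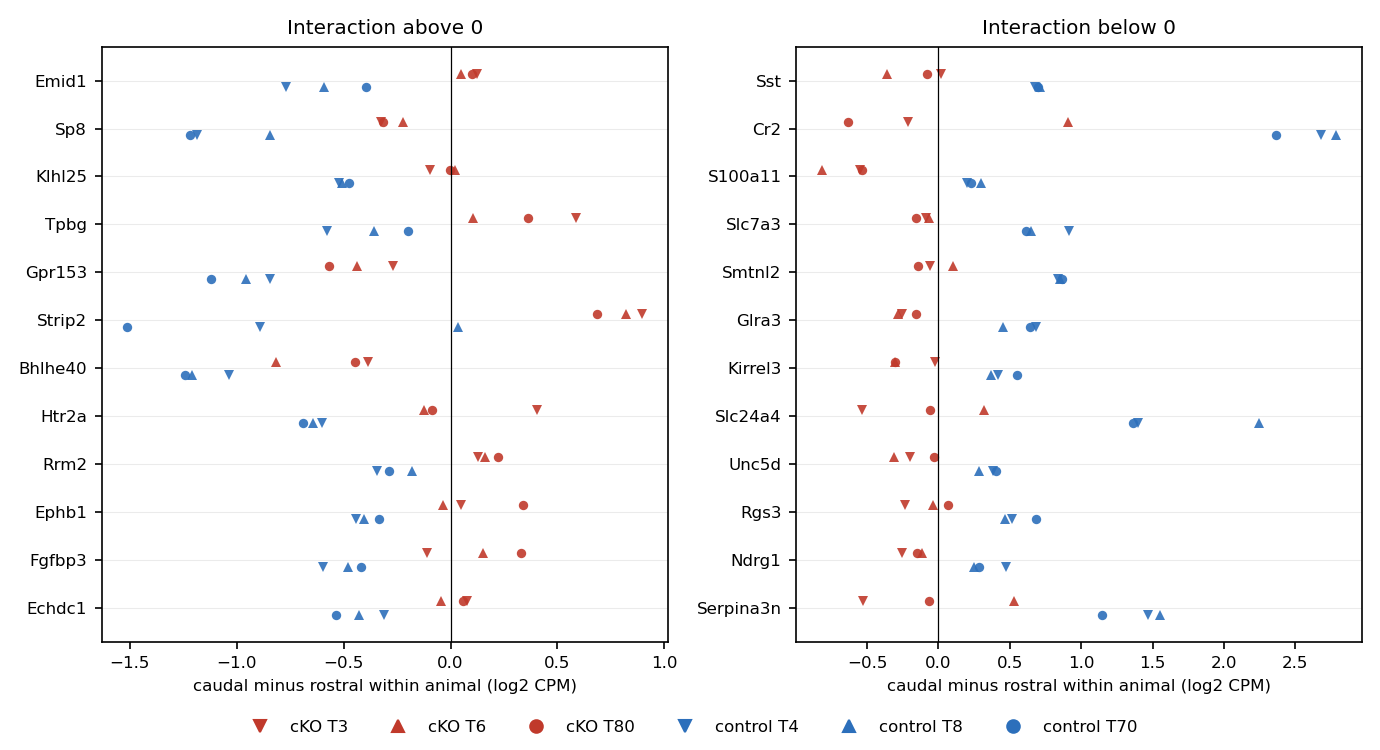
Caudal minus rostral difference (log2 CPM) in each animal for the 12 named genes above 0 (left) and the 12 below 0 (right), cKO in red and control in blue. In both panels the cKO animals lie closer to 0 than the controls for most genes, between -0.82 and 0.90. The choice by smallest p and by animals that do not overlap in part fixes this pattern.

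Among genes that pattern cortical areas, 3 of 27 were past an unadjusted p of 0.05, against 4.37% of all genes. Of these 1 was above and 2 below 0, and none had an edgeR adjusted p under 0.05. Sp8, a zinc finger factor of the rostral cortex (chromosome 12, 118810064 to 118816311), was at 9.97, 6.31 and 8.98 CPM in caudal and 12.5, 7.36 and 11.2 CPM in rostral libraries of cKO T3, T6 and T80, against 4.05, 4.21 and 5.72 CPM in caudal and 9.26, 7.59 and 13.4 CPM in rostral libraries of control T4, T8 and T70. The rostral piece was higher in every animal of both genotypes. The rostral levels overlapped, and each cKO caudal library lay above each control caudal library, giving an interaction of 0.80 (SE 0.16). Epha3, an ephrin receptor, was at -0.52 (SE 0.12) and Tenm3, a teneurin of caudal and visual circuits, at -0.57 (SE 0.15). Epha3 had differences of 0.15, -0.05 and -0.11 in cKO against 0.58, 0.63 and 0.34 in control animals, and Tenm3 had 0.05, 0.36 and 0.11 against 0.52, 0.73 and 0.97. Nr2f1, the caudal patterning factor, was at -0.42 (SE 0.20), with differences of 0.29, 0.44 and -0.24 in cKO and 0.40, 0.53 and 0.81 in control animals, which overlapped. The list's mean difference was 0.12, 0.29 and 0.28 in T3, T6 and T80 against 0.25, 0.24 and 0.39 in T4, T8 and T70, and its median interaction was 0.05, -0.05 without T3 and 0.07 without T6.

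Layer markers divided. Of 13 deep-layer genes, 11 had an interaction above 0 (median 0.17, 0.16 without T3 and 0.31 without T6) and 2 of them had an unadjusted p under 0.05. These were Tle4, a corepressor of corticothalamic neurons (0.43, SE 0.13), and Sox5, a factor of deep-layer identity (0.39, SE 0.14). The mean difference of the deep-layer list was 0.05, -0.06 and 0.16 in T3, T6 and T80. The controls T4, T8 and T70 were at 0.08, -0.23 and -0.25, so the genotypes overlapped. Syt6, a synaptotagmin of corticothalamic neurons, was at 40.2, 11.2 and 27.9 CPM in caudal and 32.5, 54.4 and 36.02 CPM in rostral libraries of cKO T3, T6 and T80, against 22.6, 18.7 and 18.7 CPM in caudal and 66.7, 68.6 and 80.1 CPM in rostral libraries of control T4, T8 and T70. T6 shared the steep rostral excess of the controls, and T3 and T80 did not, so the interaction of 1.10 came with an SE of 0.65. Of 12 upper-layer genes 9 had an interaction above 0, and only Unc5d, which was below 0, was past an unadjusted p of 0.05. That list had a mean difference of -1.18 in T6 against 0.23 and 0.24 in T3 and T80 and -0.56, -0.54 and -0.06 in controls. Its median interaction of 0.19 turned to -0.13 without T3 and was 0.65 without T6.

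The list of Cajal-Retzius and subplate genes, which mark early-born neurons above and below the cortical plate, went both ways. At an unadjusted p under 0.05, 2 of 13 were above and 2 below 0, against 1.74% and 2.63% of all genes. The list's median was -0.27, 0.03 without T3 and -0.75 without T6. The 4 genes past that p mark the subplate. Ccn2, a matricellular protein of layer 6b, was at 20.7, 21.8 and 14.8 CPM in caudal and 13.5, 11.3 and 9.60 CPM in rostral cKO libraries, against 22.3, 21.0 and 20.9 CPM in caudal and 21.5, 17.4 and 25.0 CPM in rostral control libraries. The caudal minus rostral difference was 0.61 to 0.95 in cKO and -0.26 to 0.27 in control animals, without overlap (interaction 0.71, SE 0.17, edgeR adjusted p = 1). Nxph4, a neurexophilin, was at 0.69 (SE 0.24). Nr4a2, a nuclear receptor of subplate and claustrum, had differences of 0.29, 2.17 and -0.53 in cKO against 2.24, 4.13 and 3.16 in control animals (-2.55, SE 0.82). Tmem163, a zinc transporter, was at -0.38 (SE 0.13). In the hippocampal list the median was -0.08, 0.15 without T3 and -0.33 without T6. Against 2.63% of all genes, 2 of 16 members were below 0 at an unadjusted p under 0.05. They were Wfs1, a reticulum protein of CA1 neurons (-1.01, SE 0.35), and Neurod1, a factor of young granule neurons (-0.69, SE 0.27).

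Macroglial lists had medians above 0 with all animals, without a member that passed in edgeR. In the astrocyte list 18 of 24 were above 0 (median 0.41, 0.88 without T3), and without T6 the median turned to -0.11 with 9 of 24 above 0. With all animals 1 had an unadjusted p under 0.05. This was Kcnj10, the inward rectifier potassium channel of astrocytes, at 51.8, 79.2 and 60.4 CPM in caudal and 56.9, 43.5 and 45.04 CPM in rostral cKO libraries, against 79.9, 77.7 and 74.1 CPM in caudal and 112, 111 and 109 CPM in rostral control libraries. The controls held more in the rostral piece by 0.49 to 0.56 log2 CPM, and the cKO animals had differences of -0.14, 0.87 and 0.42 (interaction 0.91, SE 0.23, edgeR adjusted p = 1). The astrocyte list had mean differences of -0.45, 1.75 and 0.19 in T3, T6 and T80, against 0.20, 0.22 and 0.02 in T4, T8 and T70, so T3 and T6 lay outside the controls on opposite sides. The summed level of the list was 3407 to 4591 CPM in cKO caudal and 1640 to 4236 CPM in cKO rostral libraries, with the low value in T6, against 4306 to 4891 CPM in control caudal and 3996 to 4387 CPM in control rostral libraries.

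In the oligodendrocyte lineage, 10 of 12 precursor genes, 7 of 10 genes of newly formed cells and 9 of 13 myelin genes were above 0, with 1, 0 and 2 at an unadjusted p under 0.05. The medians were 0.26, 0.21 and 0.22, and they were 0.43, 0.43 and 0.69 without T3 and 0.10, 0.23 and 0.17 without T6. Olig1, a factor of the lineage, was at 53.1, 60.7 and 57.7 CPM in caudal and 60.6, 44.2 and 56.5 CPM in rostral cKO libraries, against 93.7, 88.7 and 91.2 CPM in caudal and 117, 120 and 116 CPM in rostral control libraries. It was lower in cKO in both pieces, and the rostral excess of 0.32 to 0.44 log2 CPM in controls was met in cKO by differences of -0.19, 0.46 and 0.03 (interaction 0.46, SE 0.17). The galactolipid enzyme Ugt8a was at 0.59 (SE 0.18). Both genes had an edgeR adjusted p of 1.

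Most genes of the reactive astrocyte and activated microglia lists were below 0, but the general microglia list had 11 of 19 below 0, against 53.7% of all genes (median -0.09, 0.08 without T3 and -0.58 without T6). In the reactive astrocyte list 14 of 16 were below 0 (median -0.53, -0.25 without T3 and -1.003 without T6). The list held 4 below 0 at an unadjusted p under 0.05, against 2.63% of all genes. Its mean difference was -0.72, 0.74 and -0.51 in T3, T6 and T80 against 0.47, 0.62 and 0.31 in T4, T8 and T70, so that T6 lay above and T3 and T80 below all controls. Serpina3n was at 4.38, 7.90 and 5.25 CPM in caudal and 6.35, 5.47 and 5.51 CPM in rostral cKO libraries, against 4.34, 3.94 and 4.62 CPM in caudal and 1.54, 1.32 and 2.07 CPM in rostral control libraries. Every cKO rostral library lay above every control library of either piece. Timp1, an inhibitor of metalloproteinases, was at -1.60 (SE 0.56), the small heat shock protein Hspb1 at -0.92 (SE 0.36) and the interferon-induced Gbp2 at -1.23 (SE 0.47). Timp1 was scarce, at 0.32 to 1.09 CPM outside the rostral library of T80, where it was at 2.42 CPM. Its difference in T6 (0.489) lay above that in control T4 (0.485), so the genotypes overlapped. Hspb1 was at 0.62 to 1.13 CPM in the cKO libraries. In the activated microglia list 14 of 16 were below 0 (median -0.28, -0.30 without T3 and -0.61 without T6). That list held 3 below 0 at an unadjusted p under 0.05, against the same 2.63%. The scavenger receptor Msr1 was at 1.95, 1.61 and 2.39 CPM in caudal and 2.63, 2.16 and 5.86 CPM in rostral cKO libraries, against 0.714, 0.578 and 0.530 CPM in caudal and 0.294, 0.229 and 0.480 CPM in rostral control libraries. It was higher in cKO in both pieces, with the larger gap in the rostral piece (interaction -1.62, SE 0.42, edgeR adjusted p = 1). The chemokine genes were scarce, Ccl4 at 0.507 CPM or less and Ccl3 at 1.04 CPM or less outside the rostral library of T6, where it was at 3.30 CPM.

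All 16 cell cycle genes had an interaction above 0 (median 0.31, 0.53 without T3 and 0.18 without T6). Of these 3 had an unadjusted p under 0.05, against 1.74% of all genes above 0 at that p. The mean difference of the list was -0.18, 0.35 and 0.17 in T3, T6 and T80 against -0.23, -0.08 and -0.32 in T4, T8 and T70, with T3 inside the range of the controls. Ccnb1, a mitotic cyclin, was at 0.59 (SE 0.18) and Top2a, the topoisomerase of dividing cells, at 0.47 (SE 0.19). In the cholesterol synthesis list 19 of 20 were above 0 (median 0.27, 0.28 without T3 and 0.12 without T6), with 2 at an unadjusted p under 0.05. They were the isomerase Idi1 (0.50, SE 0.18) and the synthase Hmgcs1 (0.31, SE 0.13). That list was at 0.11, 0.44 and -0.11 in cKO and -0.07, -0.16 and -0.10 in control animals, which overlap.

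Within the Egfr family and its ligands, 1 of 15 was above 0 at an unadjusted p under 0.05, Tgfa, a ligand of Egfr (0.77, SE 0.29), and 1 below, Erbb4. Of 15 genes of ERK feedback, induced downstream of receptor tyrosine kinases, Dusp6, an ERK phosphatase, was at 0.32 (SE 0.12) and Phlda1 at -0.51 (SE 0.16), and the others had an unadjusted p above 0.05. The median of this list was 0.22, 0.35 without T3 and -0.04 without T6. Of 14 radial glia and neurogenic genes, 12 were above 0 with all animals (median 0.16, 0.60 without T3), and 5 without T6 (median -0.03).

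Genes of neighbouring tissue had the widest ranges among the cKO animals of all 29 lists. Over 14 meningeal fibroblast genes the mean difference was -2.56, 4.72 and -0.08 in T3, T6 and T80 against 0.74, 1.67 and 0.84 in T4, T8 and T70. Their summed level was 164 to 1092 CPM in cKO caudal and 40.6 to 953 CPM in cKO rostral libraries, against 567.5 to 731 CPM in control caudal and 215 to 481 CPM in control rostral libraries, and no member was at 0 in any library. Over 15 choroid plexus genes the mean difference was -1.11, 4.75 and 1.81 in cKO against 2.54, 1.47 and 2.50 in control animals. Their summed level was 290 to 697 CPM in cKO caudal and 53.2 to 543.5 CPM in cKO rostral libraries, against 94.4 to 319 CPM in control caudal and 59.8 to 81.8 CPM in control rostral libraries, with Tmem72 at 0 in the rostral library of T80. None of these 29 genes had an unadjusted p under 0.05. The median interaction was -0.84 for the meningeal list, 0.97 without T3 and -2.20 without T6, and -1.24 for the choroid plexus list, 0.74 without T3 and -1.88 without T6. The part of such tissue in the interaction of other genes was not tested.

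Striatal genes varied among the controls themselves. Of 17 members 14 had an interaction above 0 (median 0.50, 0.40 without T3 and 0.49 without T6) and 3 an unadjusted p under 0.05. The mean difference was 0.22, 0.68 and -0.03 in cKO against -0.17, 0.47 and -0.86 in control animals. Ppp1r1b, the phosphoprotein of striatal projection neurons, was at 25.6, 11.1 and 9.49 CPM in caudal and 12.7, 14.2 and 9.97 CPM in rostral cKO libraries, against 42.5, 9.46 and 10.98 CPM in caudal and 82.9, 23.0 and 54.1 CPM in rostral control libraries. The summed level of the list was 191 to 248 CPM in cKO caudal and 184 to 203.5 CPM in cKO rostral libraries, against 188 to 359 CPM in control caudal and 200.2 to 499 CPM in control rostral libraries, with T4 at the top in both pieces.

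**Figure D4:**
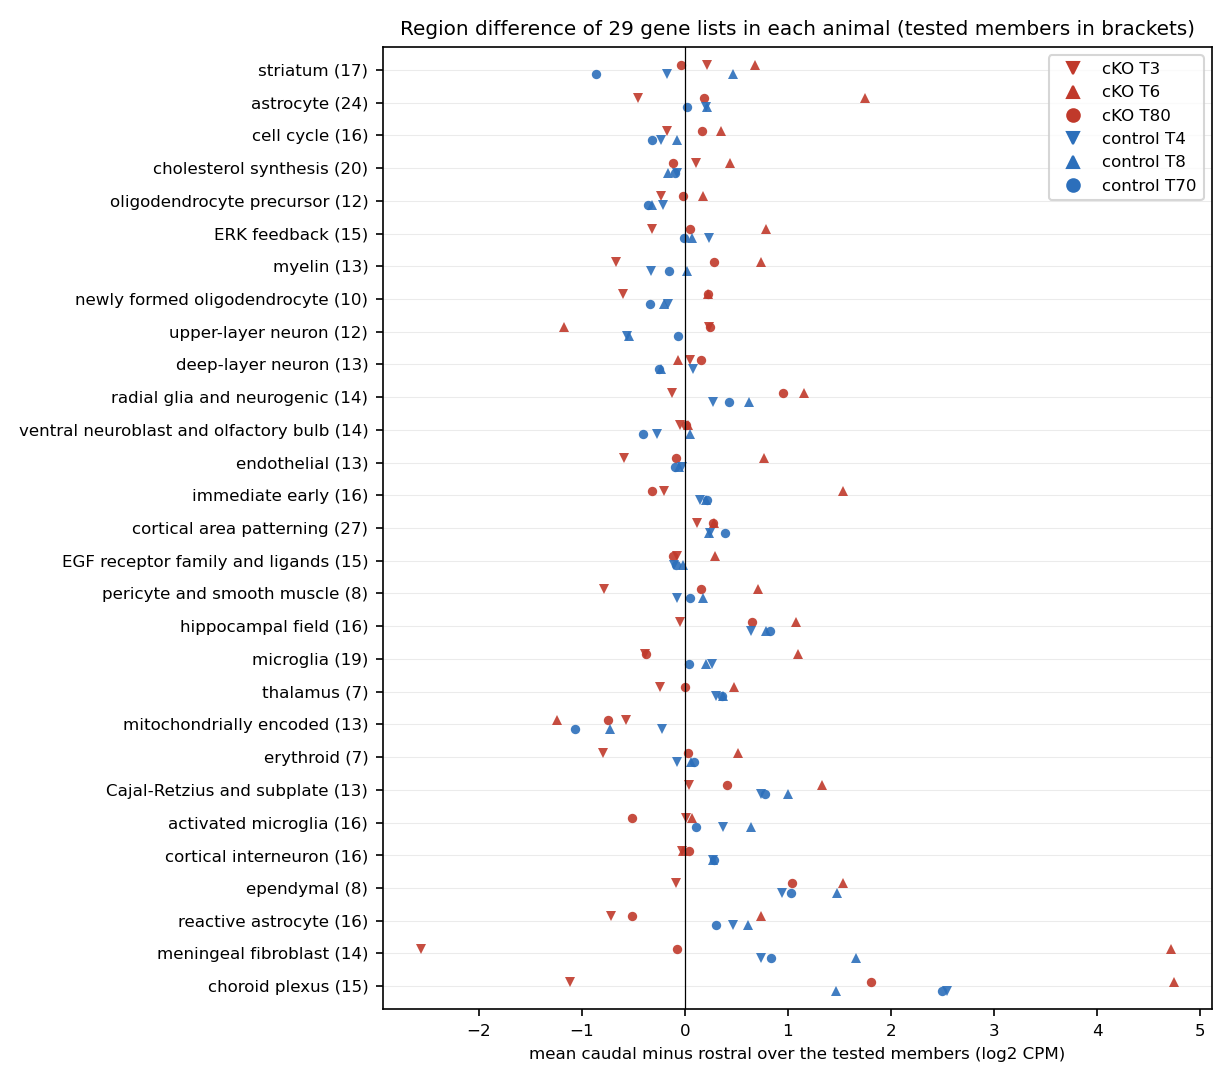
Mean caudal minus rostral difference (log2 CPM) over the tested members of each of 29 gene lists in each animal, cKO in red and control in blue. T6 lies above all controls in 22 lists and T3 below all controls in 20, and the interneuron list has all cKO animals near 0 and all controls at 0.28. It is 1 of 2 lists in which the genotypes do not overlap.

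Over all 29 lists, 45 of 404 distinct genes tested (11.1%) had an unadjusted p under 0.05, against 4.37% of all genes. The lists were chosen with earlier results of these data known, so these shares are not a test of the lists. The animals did not overlap for 49 (12.1%), near the 9.98% of all genes. In 25 lists the mean differences spanned a wider range among cKO than among control animals. T3 lay below all controls in 20 lists, T6 lay above all controls in 22, and in 18 T3 and T6 lay outside the controls on opposite sides. For 2 of the 29 lists, cortical interneuron and activated microglia, the cKO animals did not overlap the controls, lying below them. Among single genes the share without overlap was 9.98%. The median interaction changed sign in 10 of the 29 lists without T3, in 6 without T6, in 4 without T80 and in 1 when any one control was left out.

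A single animal decided the count of calls. Without T6, edgeR called 736 of 21907 genes (3.36%; Benjamini-Hochberg adjustment), 266 above 0 (1.21%) and 470 below 0 (2.15%), while 1 was called without T3 (0.00457%) and 0 without T80 or without any control animal. Of the 735 of these genes that were also tested with all animals, T6 lay outside the range of the controls on the same side as the call in 152 (20.7%), within the range in 154 (21%) and outside it on the other side in 429 (58.4%). How often T6 lay outside that range over all genes was not counted. These shares therefore cannot be read as a trait of the called genes. With T80 as the lone cKO animal, assumed to vary like the controls, 752 genes were called (3.32%). Of the 24 named genes, 10 above and 12 below 0 were called without T6. The 24 were chosen by smallest p and by non-overlap in these same animals, so these counts are no independent support for them.

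**Figure D5:**
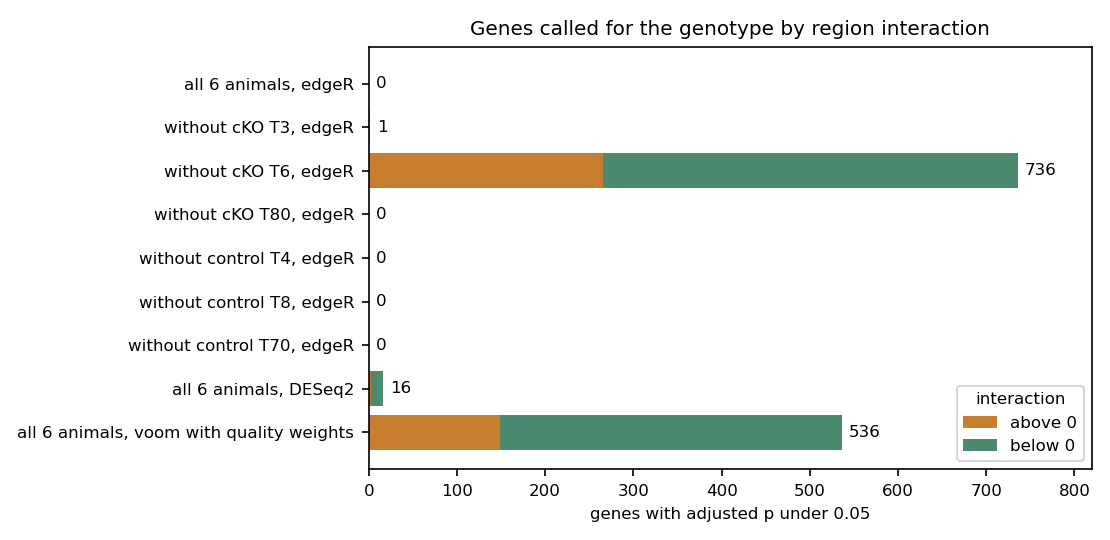
Number of genes with an adjusted p under 0.05 for the interaction under 9 settings, divided into interactions above and below 0. The edgeR count is 0 with all 6 animals and 736 without T6.

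Members of the lists called without T6, and so on T3 and T80 alone, are given here as chosen after their values were seen. They included 6 of 19 microglial genes and 5 of 16 reactive astrocyte genes, all below 0, against 2.15% of all genes called below 0 in that fit. C1qa, a complement subunit made by microglia, was at 18.6, 16.6 and 15.0 CPM in caudal and 27.6, 6.48 and 20.7 CPM in rostral libraries of cKO T3, T6 and T80, against 13.1, 8.60 and 12.3 CPM in caudal and 9.26, 6.99 and 9.16 CPM in rostral libraries of control T4, T8 and T70. T3 and T80 held more C1qa in the rostral piece, T6 more in the caudal piece, and its interaction was -0.92 without T6 (SE 0.12) and -0.33 with it (SE 0.51). Another 5 of 16 immediate early genes were below 0, among them Fos, the activity-induced factor, which had differences of -0.75, 2.61 and -1.06 in T3, T6 and T80 against 0.64, 0.60 and 0.96 in controls. Again T6 was above and the other cKO animals below all controls. With all animals, 10 of the 16 immediate early genes had an interaction above 0. The median of that list was 0.09, 0.28 without T3 and -0.32 without T6.

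Members of neuronal lists called without T6 went both ways. Over all genes in that fit, 1.21% were called above and 2.15% below 0. Deep-layer genes had 3 of 13 above 0 and upper-layer genes 3 of 12 above and 1 below 0. Interneuron genes had 3 of 16 and hippocampal genes 2 of 16 below 0, and area patterning genes 2 of 27 above and 2 below 0. Pou3f2, a transcription factor of upper-layer neurons, had differences of 0.37, -1.87 and 0.45 in T3, T6 and T80 against -0.95, -0.90 and -0.42 in controls, and its interaction was 1.17 (SE 0.16) without T6 and 0.44 (SE 0.65) with it. Nr2f2, a factor of caudal ganglionic eminence interneurons and caudal cortex, had differences of -1.11, 2.54 and -0.37 in cKO against 2.28, 2.05 and 2.02 in control animals, with an interaction of -2.85 (SE 0.23) without T6. For Nr2f2 T6 lay just above the controls, and T3 and T80 well below them. For Sst the interaction was -0.72 (SE 0.08) without T6 and -0.84 with it.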

How the data were processed

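The deposited table holds expected counts per gene, of which 9.69% to 14.3% per library were fractional, and which the authors made with STAR 2.7.8a and featureCounts 2.0.3 on GRCm39, per the submitters' processing notes. For annotation release, strand and shared reads the settings were not given in the sources used here, so near-identical copies and overlapping or antisense genes are uncertain. Tests for whole counts had been planned. The values were rounded to whole numbers and the tests kept. The table has 55357 genes, of which 42419 had a count. Genes were kept with filterByExpr and scaled by TMM in edgeR 4.0.16 (R 4.3.3), and all 12 libraries were tested with its robust quasi-likelihood F test, with each animal as a block, a region term per genotype and their difference as the interaction. P-values were adjusted by Benjamini-Hochberg with a threshold of 0.05. Standard errors are the log2 estimate divided by the square root of F. CPM were scaled over all 12 libraries, and log2 CPM used a prior count of 3. Sex was not a covariate.

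The pairing rests on the T numbers of the labels, taken as animals. As a check, deviations from the group means were correlated across genes between the libraries of an animal, which gave r = 0.03, -0.00278 and 0.461 for T3, T6 and T80 and 0.269, 0.247 and 0.333 for T4, T8 and T70. Nothing says whether animals shared a litter. The script was tested on simulated data.

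The comparison, the lists (29, with 415 distinct genes) and the rule for named genes were chosen with earlier results of these data known. Named were Egfr, 12 genes each way by smallest p with a mean of 1 CPM or more, animals that do not overlap and no model symbol, without Xist, Tsix and Y-linked genes, and up to 4 genes of a list by smallest p. Alternatives were DESeq2 1.42.0, limma 3.58.1 on the within-animal differences or with voom and duplicateCorrelation, no block, RLE and upper-quartile scaling, no filter or 1 CPM in 3 libraries, a covariate for T numbers of 70 or above, and leaving out each animal. Library quality weights, removal of mitochondrial genes and T80 as the only cKO animal were added after seeing the data. A few genes are not reported here.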

Additional observations from a re-analysis of the deposited data

How the results depend on the processing

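The interaction called 0 genes in edgeR with all animals, and also without the replicate block (767 at an unadjusted p under 0.05, against 943 with it), under RLE and upper-quartile scaling, with either filter, with the T number covariate, without mitochondrial genes, and in both limma fits without weights. DESeq2 called 16, quality weights 536 and T80 as the lone cKO animal 752. Leaving out an animal gave 0 to 736. Region in cKO gave 0 calls with all animals, 31 by DESeq2, 1 with no filter, 17 with quality weights, 149 with T80 alone and 0 to 5 with an animal left out. Region in control gave 0 calls with the block, 78 without the replicate block, 198 by voom with duplicateCorrelation, 496 by DESeq2, 111 with no filter, 3244 with quality weights, 3166 with T80 as the lone cKO animal and 0 to 1821 with an animal left out. The cause of these shifts was not tested. The difference in size of the region difference between cKO and control was -0.0114 (without T6) to 0.10 with an animal left out. The sign of the Egfr interaction (0.05) turned to -0.35 with quality weights and -0.34 with T80 alone, and ran from -0.54 without T6 to 0.46. Without control T70 it was -0.07. All 24 other genes of the named set kept their sign in every setting. Their choice by animals that do not overlap largely fixes this when an animal is left out, so it is no support for them. Depth was at least 43810241 counts in each library, and there were 3 animals per genotype.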

Other observations

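Beyond the genes described, DESeq2 called a few whose edgeR adjusted p was 1, and they are named here after their values were seen. Htr1a, an inhibitory serotonin receptor with a high level in the hippocampus, was at 12.5, 17.1 and 12.9 CPM in caudal and 13.1, 7.81 and 11.6 CPM in rostral libraries of cKO T3, T6 and T80, against 21.1, 19.4 and 16.9 CPM in caudal and 4.65, 4.30 and 5.38 CPM in rostral libraries of control T4, T8 and T70. Each control held far more in its caudal piece, T6 did so to a lesser extent, and T3 and T80 were close to even (interaction -1.60, DESeq2 adjusted p = 0.00677). Cdkn1c, an inhibitor of cyclin-dependent kinases, had differences of -0.68, 0.86 and -0.47 in cKO against 1.38, 1.49 and 1.39 in control animals (-1.53, DESeq2 adjusted p = 0.0261). The kinase Dgkg, which phosphorylates diacylglycerol, had -0.25, 0.85 and 0.33 against 1.56, 1.74 and 1.31 (-1.22, DESeq2 adjusted p = 0.0261), and the extracellular protein Crtac1 had 0.06, 0.75 and 0.18 against 1.0, 1.64 and 1.48 (-1.04, DESeq2 adjusted p = 0.0399). In these 4 genes T6 was the cKO animal nearest to the controls. In Rsph4a, a radial spoke protein of cilia that DESeq2 also called (-1.49, DESeq2 adjusted p = 0.0458), the differences were -0.28, -0.58 and 0.59 against 1.41, 1.67 and 1.02, with T6 the farthest.

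Thalamic and vascular lists held single genes with an unadjusted p under 0.05, which DESeq2 did not call. Slc17a6, the vesicular glutamate transporter of thalamic neurons, was at 64.0, 69.97 and 78.9 CPM in caudal and 65.0, 73.7 and 58.9 CPM in rostral cKO libraries, against 86.9, 75.5 and 81.1 CPM in caudal and 54.4, 48.5 and 44.4 CPM in rostral control libraries (interaction -0.62, SE 0.15, edgeR adjusted p = 1). Every cKO rostral library lay above every control rostral library. Abcc9, a potassium channel subunit of pericytes, was at 0.48 (SE 0.16) and Mfsd2a, the lipid transporter of brain endothelium, at 0.39 (SE 0.15), both with an edgeR adjusted p of 1.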
